A study of Rattus norvegicus with 24 samples.

Results

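Corticosteroid receptors and the genes known to respond to them were followed across both striatal regions and all treatment groups of an adult rat study. The 9 genes were taken as a fixed list by name, out of 17303 genes in the expression table. They are the glucocorticoid receptor gene Nr3c1, the mineralocorticoid receptor gene Nr3c2, and 7 genes known as corticosteroid-responsive: Fkbp5, Sgk1, Klf9, Arrdc2, Tsc22d3, Zbtb16 and Ddit4. They were picked by name, with earlier results of these data known.

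Poly(A)-selected RNA was sequenced from bulk nucleus accumbens (NAc) and dorsolateral striatum (DLS) of male Sprague-Dawley rats on postnatal day 90. The 24 libraries fall into 8 groups of 3. In each region there were offspring of LPS-injected dams that were stressed in adolescence, offspring of LPS-injected dams that were only handled, offspring of saline-injected dams that were stressed, and offspring of saline-injected dams that were handled, which are called controls. Dams were injected on gestational days 15 and 16, so every rat, controls included, came from an injected dam. LPS, lipopolysaccharide, is a bacterial cell wall component that triggers innate immunity, and the stressors came in an unpredictable order. The labels do not say which rats shared a litter or whether an NAc and a DLS library came from 1 rat, so p-values measure only the spread between these samples. The tissue came from male rats only and was not sorted into cell types, so fewer cells of a type and less RNA per cell cannot be told apart in any value below.

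Corticosteroids released under stress enter cells and bind their receptors in the cytoplasm, where heat shock proteins and immunophilins hold the receptors ready. The bound receptor moves to the nucleus and attaches to DNA, where it raises or lowers the transcription of target genes. The mineralocorticoid receptor has the higher affinity for corticosterone, the main corticosteroid of rats, so it is largely occupied at rest, while the glucocorticoid receptor fills as the hormone rises. Fkbp5 codes for an immunophilin that lowers the affinity of the glucocorticoid receptor for its hormone, and so closes a feedback loop inside the cell.

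All 9 genes were listed with values above 1 in all 24 libraries. The table had lost its decimal points, so a value is known only up to a power of 10, and the level of a gene relative to other genes, or in FPKM, cannot be read. What can be read is the ratio of a gene between libraries, provided that all its libraries lie within a 3.16-fold range, the limit that was set. The 8 genes other than Zbtb16 met that limit in DLS, in NAc and over both regions. They spanned 1.51-fold (Arrdc2) to 2.34-fold (Sgk1) in DLS, and 1.33-fold (Klf9) to 1.88-fold (Sgk1) in NAc. Over both regions Nr3c1 had a range of 1.93-fold, while Nr3c2 spanned 3.10-fold, just inside the limit. A difference that in truth was several-fold larger would be read wrongly. The 2.06-fold higher Nr3c2 in NAc reported below could equally be written, from the same digits, as 4.84-fold lower, and the smaller ratio was taken throughout. In the same way Klf9 could be written as 6.24-fold higher in NAc, Arrdc2 as 5.70-fold higher and Nr3c1 as 7.94-fold lower, so every direction between the regions rests on taking the smaller ratio. Sequencing depth cannot be read from these values either.

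All 15 striatal projection neuron markers looked up were above 1 in all 24 libraries. In NAc, control replicate 1 and saline stressed replicate 3 stood apart in 69 cytosolic ribosomal protein genes, whose mean log2 relative to controls was 0.41 and 0.38 there, against -0.34 to -0.10 in the other NAc libraries. Results that rest on these 2 libraries are given with and without them where both were computed. In DLS the index, over 55 such genes, spread more widely, from -0.20 to 0.87. It averaged 0 in DLS controls (-0.19 to 0.37) and 0.35 to 0.51 in the 3 exposed DLS groups. The exposure comparisons in DLS were not computed without its high libraries as a set, and the part of the index in them was not tested.

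Positions are given as the expression table lists them, and its genome build is not given in the sources used here. Nr3c1 was listed at chr18:31408741-32348480. That interval of 939740 bases also holds Arhgap26, Fgf1, LOC100911367 and Spry4, so its value may mix reads of other genes and is uncertain. Nr3c2 was listed at chr19:45287441-45639834, Fkbp5 at chr20:10177057-10262014 and Sgk1 at chr1:25652750-25660866. Klf9 stood at chr1:248193533-248218136, Arrdc2 at chr16:20209577-20213710, Zbtb16 at chr8:51578464-51739786 and Ddit4 at chr20:31315023-31317123. Tsc22d3 was listed at chr3:52711811-52715433, next to Mid2 and Prps1, whereas RefSeq has all of these side by side on chromosome X of GRCr8. Introns, exons and untranslated regions are not marked in the table.

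Promoter windows of RefSeq (GRCr8), from 250 bases before to 50 bases after a gene start, existed for 7 of the 9 genes, 12 windows in all. The half-site of the receptor element, TGTTCT on either strand, was in 0 of these 12 windows, against 20.68% of all 33469 promoter windows of that length. The full element with a 3-base spacer, GNACANNNTGTNC, which reads the same on both strands, was also in 0 of 12, against 0.4392% of all windows. The GC box GGGCGG, on either strand, was in 8 of the 12 windows, against 33.06% of all. These are matches of letters only, and elements outside the windows were not looked for. The windows of Sgk1 (the third of its 3 starts), Ddit4 and Arrdc2 are printed because the values of Ddit4 went along with those of Sgk1 and Arrdc2 in DLS. The third start of Sgk1 was picked as its window with the most GC boxes. They run 5′ to 3′ on the strand of the gene, with GC boxes in capitals. They lie at chr1:24804782-24805081 on the minus strand, chr20:28436988-28437287 on the minus strand and chr16:18635633-18635932 on the plus strand of GRCr8.
Sgk1: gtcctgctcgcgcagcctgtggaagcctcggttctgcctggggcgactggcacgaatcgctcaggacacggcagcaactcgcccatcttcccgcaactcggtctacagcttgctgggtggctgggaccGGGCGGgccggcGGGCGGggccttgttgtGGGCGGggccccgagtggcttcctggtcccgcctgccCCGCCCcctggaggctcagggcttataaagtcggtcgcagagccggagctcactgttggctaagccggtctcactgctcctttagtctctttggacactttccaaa
Ddit4: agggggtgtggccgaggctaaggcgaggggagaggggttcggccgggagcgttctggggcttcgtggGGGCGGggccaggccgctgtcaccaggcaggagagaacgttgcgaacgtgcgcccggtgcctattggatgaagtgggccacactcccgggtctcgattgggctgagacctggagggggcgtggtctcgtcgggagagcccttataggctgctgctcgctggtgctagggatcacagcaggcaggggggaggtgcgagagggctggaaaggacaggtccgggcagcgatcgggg
Arrdc2: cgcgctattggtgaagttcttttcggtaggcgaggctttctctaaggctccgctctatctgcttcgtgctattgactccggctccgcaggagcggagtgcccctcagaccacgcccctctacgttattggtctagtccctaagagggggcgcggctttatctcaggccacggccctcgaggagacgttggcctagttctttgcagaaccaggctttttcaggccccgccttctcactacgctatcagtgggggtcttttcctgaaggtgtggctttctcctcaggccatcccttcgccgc
The Sgk1 window printed held 4 GC boxes, against 0 and 2 in those of its first and second starts, the Ddit4 window 1 and the Arrdc2 window 0.

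NAc and DLS differed in both receptor genes and in 4 of the responsive genes. Both receptor genes were higher in NAc, Nr3c2 about 2-fold, while Arrdc2, Klf9, Tsc22d3 and Fkbp5 were lower there. The difference was tested over the mean of the 4 groups with limma, with Benjamini-Hochberg adjustment over 7667 genes. In this comparison 66.0% of all genes passed an adjusted p of 0.05, so 6 of 8 members called is close to the background. By direction, with the smaller ratio taken for every gene, 26.2% of all genes were called higher in NAc, against 2 of 8 members, and 39.7% were called lower, against 4 of 8 members. Members had a median log2 difference of -0.27, against -0.08 for all genes.

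The receptor genes come first, on a scale where the DLS control mean is 1. Nr3c2 lay between 1.34 and 2.13 in the 12 NAc libraries (median 1.94), against 0.686 to 1.17 in the 12 DLS libraries (median 0.878). All NAc libraries were above all DLS libraries, which held for 2.20% of all genes. The log2 difference was 1.05 ± 0.08 (SE, adjusted p = 1.01e-08). It ran from 0.83 in controls to 1.18 in saline stressed rats when taken group by group. Nr3c1 lay between 0.915 and 1.42 in NAc (median 1.25), against 0.735 to 1.21 in DLS (median 0.948). The regions overlapped, with 6 of 12 NAc libraries above all DLS libraries, and the log2 difference was 0.33 ± 0.09 (SE, adjusted p = 0.00251).

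Arrdc2 and Klf9 separated the regions in the other direction. Arrdc2 codes for an arrestin-domain protein of a family that acts in the traffic of membrane proteins. It lay between 0.526 and 0.768 in NAc (median 0.598), against 0.957 to 1.44 in DLS (median 1.06). The log2 difference was -0.81 ± 0.08 (SE, adjusted p = 7.96e-08). Klf9, a zinc finger transcription factor that thyroid hormone and glucocorticoids induce in brain, lay between 0.659 and 0.878 in NAc (median 0.709), against 0.889 to 1.85 in DLS (median 1.10). Its log2 difference was -0.68 ± 0.11 (SE, adjusted p = 2.11e-05). In both genes all 12 NAc libraries were below all 12 DLS libraries, which held for 3.57% of all genes. The lowest DLS library of Klf9 (0.889) lay just above the highest NAc library (0.878).

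Tsc22d3 and Fkbp5 were lower in NAc with overlap. Tsc22d3, which codes for the glucocorticoid-induced leucine zipper protein that restrains inflammatory signalling, ranged from 0.729 to 1.30 in NAc (median 0.838), against 0.851 to 1.86 in DLS (median 1.20). For NAc minus DLS the log2 difference was -0.41 ± 0.10 (SE, adjusted p = 0.00136), and 7 of 12 NAc libraries lay below all DLS libraries. Its group-wise difference was 0.04 in controls and between -0.60 and -0.54 in the exposed groups. Relative to the DLS control mean, its log2 group mean was 0.04 in NAc controls and -0.25 to -0.13 in the exposed NAc groups. In DLS it was 0 in controls and 0.29 to 0.47 in the exposed groups, so both regions entered into the contrast. NAc control replicate 1, a library of high ribosomal protein index, was the highest NAc library. Tsc22d3 stood at 1.30 there, against 0.998 and 0.838 in NAc control replicates 2 and 3. The control difference without that library was not computed. Fkbp5 ranged from 0.723 to 1.02 in NAc (median 0.839), against 0.843 to 1.30 in DLS (median 1.06). Its log2 difference was -0.32 ± 0.07 (SE, adjusted p = 6.85e-04), and 6 of 12 NAc libraries lay below all DLS libraries.

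Sgk1 and Ddit4 did not pass the threshold between the regions. Sgk1, a kinase that regulates ion channels and transporters and is a classic target of both receptors, ranged from 0.733 to 1.38 in NAc (median 0.888), against 0.790 to 1.85 in DLS (median 1.05). Its log2 difference was -0.22, with a 95% interval of -0.48 to 0.04 (adjusted p = 0.132). Ddit4, an inhibitor of mTORC1 signalling that stress and glucocorticoids induce, ranged from 0.761 to 1.28 in NAc (median 0.940), against 0.830 to 1.60 in DLS (median 1.09). Its log2 difference was -0.20, with an interval of -0.40 to -0.01 (adjusted p = 0.0646). The adjusted p of Ddit4 fell below 0.05 when any 1 of 5 libraries was left out: DLS saline stressed replicate 3 (0.029), DLS LPS unstressed replicate 1 (0.0413) or 3 (0.0427), NAc control replicate 1 (0.0191) or NAc LPS unstressed replicate 1 (0.0464). Without both NAc libraries of high ribosomal protein index the same 6 members passed, and Ddit4 did too, at -0.23 ± 0.09 (SE, adjusted p = 0.0318). Nr3c1 was then at 0.41 ± 0.08 and Nr3c2 at 1.12 ± 0.07 (SE).

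**Figure D1:**
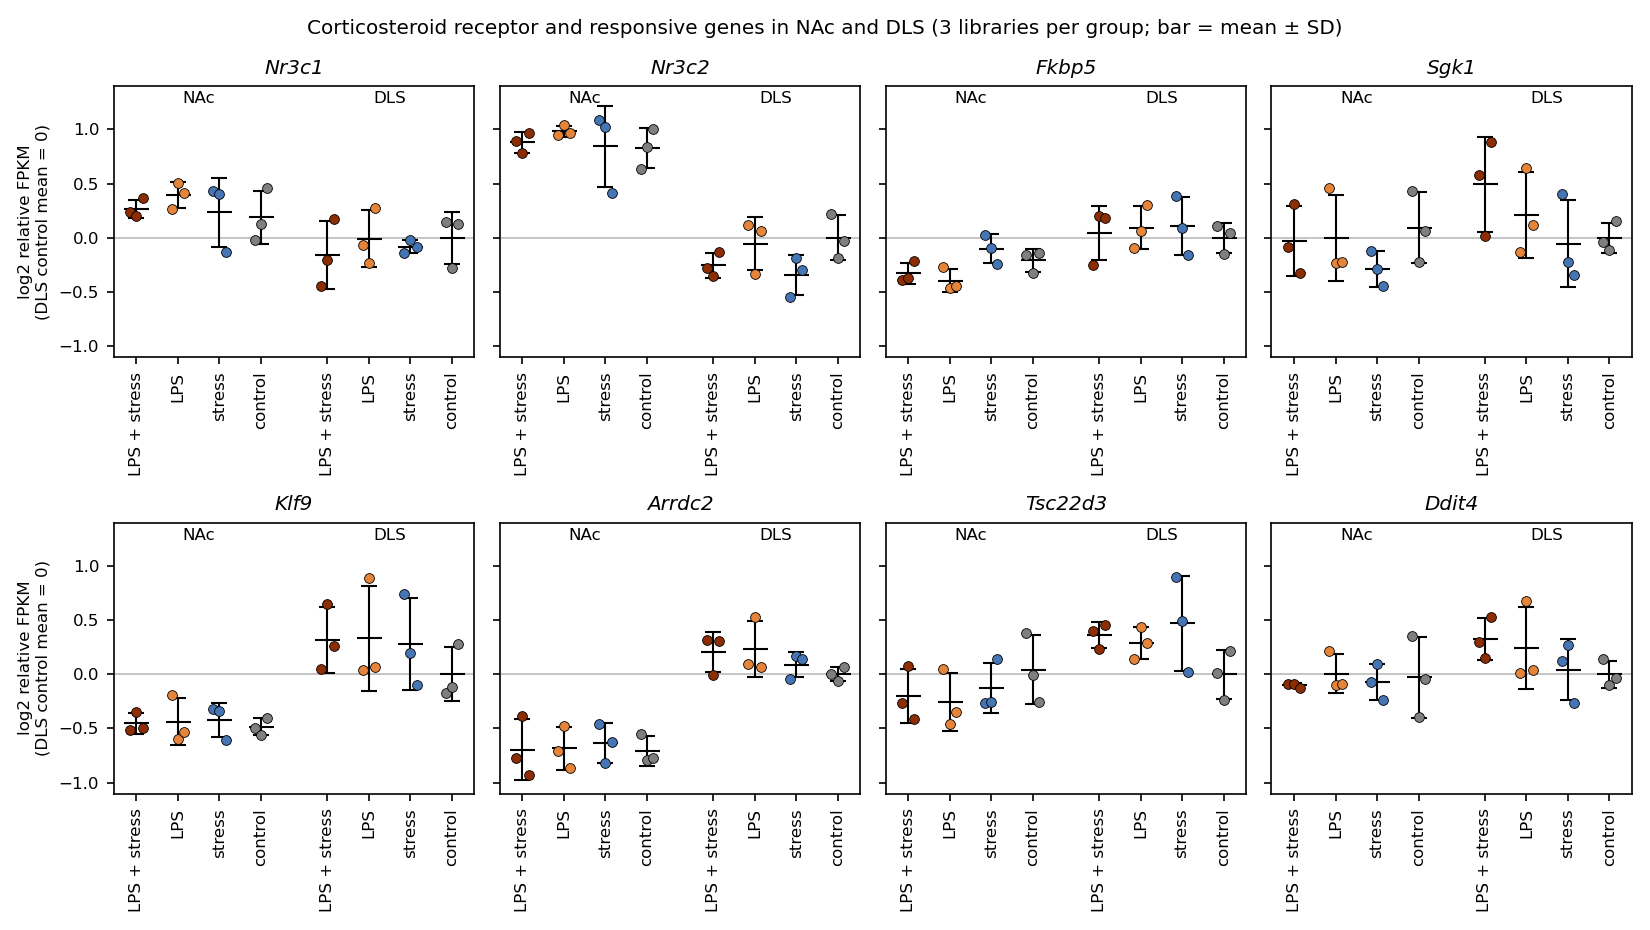
Relative level of the 8 recoverable genes in each group, as log2 of FPKM relative to the DLS control mean (y axis), with NAc groups left of DLS groups on the x axis. Points are libraries and bars the mean ± SD of 3 libraries. All NAc points of Nr3c2 lie above, and all those of Arrdc2 and Klf9 below, the DLS points, while the 4 groups within a region overlap in most genes.

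Along the order of the 8 group means of each gene, neighbouring groups overlapped at every step in Nr3c1, Fkbp5, Sgk1, Tsc22d3 and Ddit4. In Nr3c2, Klf9 and Arrdc2 the step from one region to the other was the single step without overlap. The order ran from DLS saline stressed to NAc LPS unstressed in Nr3c2 (log2 -0.34 ± 0.18 and 0.98 ± 0.05, SD, n = 3 each). In Arrdc2 it ran from NAc controls to DLS LPS unstressed (-0.71 ± 0.14 and 0.23 ± 0.26). In Sgk1 it ran from NAc saline stressed to DLS LPS stressed (-0.29 ± 0.16 and 0.49 ± 0.44).

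Other measures differed between the regions too, and their counts are to be read against all genes, of which 26.2% were called higher in NAc and 39.7% lower. Many listed markers could not be tested, partly because genes beyond the 3.16-fold limit were left out. Those tested were 5 of 15 microglia, 7 of 15 endothelial, 7 of 15 striatal projection neuron and 5 of 12 leptomeningeal and fibroblast markers. Of 12 oligodendrocyte marker genes tested, 9 were called lower in NAc and 0 higher (median log2 difference -0.39). The myelin gene Mog was at -0.67 ± 0.07 (SE, adjusted p = 1.5e-07). Of 5 microglia markers 3 were called lower (median -0.32), and of 7 endothelial markers 4 were called higher (median 0.41). Of 7 striatal projection neuron markers 4 were called lower in NAc and 0 higher (median -0.52). Of 10 astrocyte markers 6 were called lower and 3 higher (median -0.25), and of 5 leptomeningeal and fibroblast markers 3 were called lower and 0 higher (median -0.33). All 17 cytosolic ribosomal protein genes that could be tested were called lower in NAc (median -0.71). Their part in the differences of the receptors and responsive genes was not tested.

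The machinery around the receptors was followed through 4 further lists, whose counts are to be read against the 66.0% of all genes called in this comparison. In chaperones, coregulators and other responsive genes, 9 of 14, 7 of 10 and 7 of 13 were called, so none of these lists stood far above that share. Of 14 tested chaperones and immunophilins of the receptors, 3 were called higher in NAc and 6 lower (median -0.14). The lower ones included Bag1, a co-chaperone, at -0.73 ± 0.09 (SE, adjusted p = 1.5e-06). Hsp90aa1, a gene of the heat shock protein that holds the receptor in its hormone-binding form, was at -0.58 ± 0.13 (SE, adjusted p = 7.3e-04). Of 10 coregulators 3 were called higher and 4 lower (median -0.11). Crebbp, a histone acetyltransferase gene, was at -0.47 ± 0.09 (SE) and Ncoa1, a steroid receptor coactivator gene, at 0.40 ± 0.09 (SE).

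Of 13 other glucocorticoid-responsive genes tested, 5 were called higher in NAc and 2 lower (median 0.12). Bcl6, a transcriptional repressor, was at 0.52 ± 0.08 and Ehd3, an endocytic trafficking gene, at 0.76 ± 0.13 (SE). Dusp1, a phosphatase of MAP kinases, was at -0.52 ± 0.11 and Nfil3, a transcription factor, at -0.52 ± 0.10 (SE). In the list of hormone supply and the CRH system only 3 genes could be tested. Crhr1, the main CRH receptor, was called higher (0.29 ± 0.12, SE, adjusted p = 0.041). Hsd11b1, whose enzyme regenerates active corticosterone, was called lower (-0.25 ± 0.10, SE, adjusted p = 0.033), as was Srd5a1, a steroid reductase gene (-0.40 ± 0.08, SE).

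Adolescent stress was tested first as a main effect, the mean of the 2 stressed groups minus that of the 2 unstressed groups. In DLS 0 of 8 members passed the adjusted threshold, as did 0% of 9275 genes, and 1 member had an unadjusted p under 0.05, against 7.29% of all genes. In NAc 0 of 8 members passed, as did 0% of 10616 genes, and 0 members had an unadjusted p under 0.05, against 0.895% of all genes. Interval widths show what these data could see. For Fkbp5 in NAc the log2 difference was 0.09, with a 95% interval of -0.08 to 0.26. For Klf9 in DLS it was 0.13, with an interval of -0.28 to 0.55.

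Nr3c2 in DLS was the member with an unadjusted p under 0.05 for stress. Relative to the control mean it stood at 0.822, 0.784 and 0.913 in LPS stressed rats and at 0.686, 0.879 and 0.816 in saline stressed rats. It stood at 1.08, 0.791 and 1.04 in LPS unstressed rats and at 1.17, 0.877 and 0.977 in controls. All 6 stressed libraries were below 0.92, and 2 of the 6 unstressed libraries reached down into their range. Stressed minus unstressed came to a log2 difference of -0.27 ± 0.12 (SE, limma adjusted p = 0.637). For the same effect in DLS, 8 of 8 leptomeningeal and fibroblast markers had values above 0 (median 0.37), 4 of them at an unadjusted p under 0.05 and 0 called. Their index ranged from 0.12 to 0.22 in LPS stressed, 0.12 to 0.32 in saline stressed, -0.46 to 0.15 in LPS unstressed and -0.07 to 0.08 in control rats. The ribosomal protein index averaged 0.43 in LPS stressed, 0.51 in saline stressed, 0.35 in LPS unstressed and 0 in control rats. The part of these measures in the Nr3c2 values was not tested. In NAc the stress difference of Nr3c2 was -0.04 ± 0.12 (SE). The difference between the regions was 0.23 ± 0.16 (SE, adjusted p = 0.934).

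Saline stressed rats against controls gave 1 further member with an unadjusted p under 0.05. Tsc22d3 stood at 1.86, 1.41 and 1.01 in saline stressed DLS, against 1.01, 0.851 and 1.16 in control DLS. Replicates 1 and 2 of the stressed group were above all controls, and replicate 3 was within the control range. The log2 difference was 0.47 ± 0.20 (SE, limma adjusted p = 0.325), and it was 0.26 without saline stressed replicate 1. In the other DLS groups Tsc22d3 stood at 1.32, 1.17 and 1.37 in LPS stressed rats and at 1.11, 1.35 and 1.22 in LPS unstressed rats. For saline stressed against control DLS 0 of 8 members and 0% of 9275 genes were called, and 14.6% of all genes had an unadjusted p under 0.05. In NAc the same comparison called 0 of 8 members and 0% of all genes. There 0 members had an unadjusted p under 0.05, against 1.29% of all genes.

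Tsc22d3 in DLS went along with the microglia markers, and astrocyte markers also moved. The microglia index, the mean log2 of 11 marker genes relative to controls, was 0.68, 0.55 and 0.09 in saline stressed DLS, against 0.00, -0.08 and 0.08 in control DLS. Over all 12 DLS libraries Tsc22d3 and the index had a Pearson r of 0.91 and a Spearman rho of 0.93 (permutation p = 2e-05 for each, adjusted p = 6.4e-04 over 32 relations). Without the 2 libraries whose index was farthest from the median, r was 0.89. The permutations took no account of group, and both measures averaged higher in each exposed DLS group than in controls. The p-values therefore do not separate differences between groups from variation within them. In NAc r was 0.54 over 12 libraries (permutation p = 0.0718) and 0.01 without control replicate 1 and saline stressed replicate 3. Of the 11 microglia markers, 6 had an unadjusted p under 0.05 in the higher direction in saline stressed against control DLS and 1 in the lower direction. Klf9 followed the index in DLS as well, with r = 0.77 (permutation p = 0.00404, adjusted p = 0.0323; rho 0.74, permutation p = 0.00798, adjusted p = 0.0638), and 0.51 without the 2 farthest libraries. The astrocyte index, over 14 markers, was 0.34, 0.48 and 0.04 in saline stressed DLS, against 0.11, -0.22 and 0.11 in control DLS. Of these 14 markers 4 had an unadjusted p under 0.05 in the higher direction and 0 in the lower. Over the DLS libraries Tsc22d3 had an r of 0.74 with the astrocyte markers. With the mean of 18 other glucocorticoid-responsive genes its r was 0.79, and no permutation test was run for either. The microglia and ribosomal indices were picked among more lists with their values in view. The adjustment over 32 relations does not cover that choice. The part of the microglia and astrocyte markers in the Tsc22d3 and Klf9 values was not tested.

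**Figure D2:**
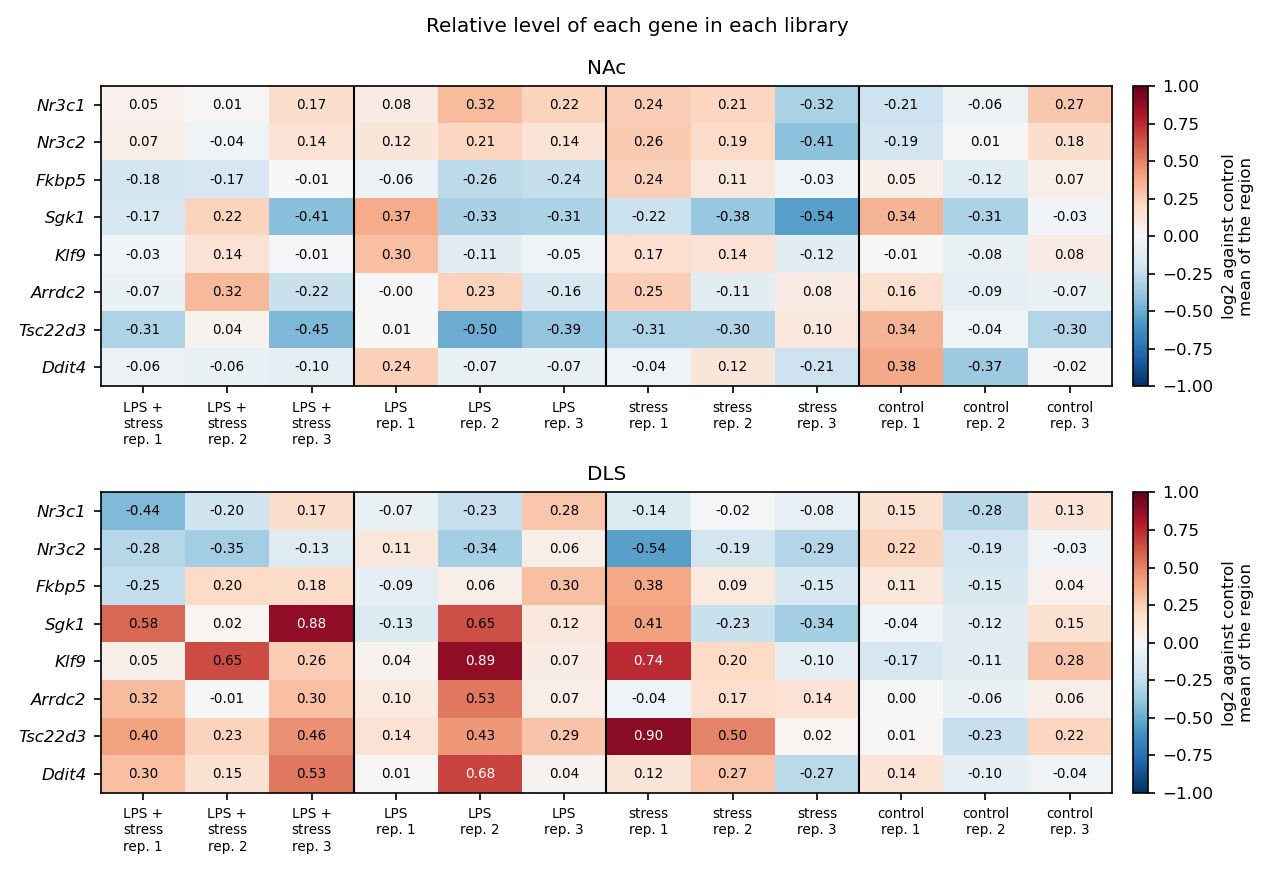
Log2 of each gene in each library relative to the control mean of its region (colour and printed value), with the groups side by side along the x axis. In DLS the largest values are those of Tsc22d3 in saline stressed replicate 1, Klf9 in LPS unstressed replicate 2 and Sgk1 in LPS stressed replicate 3.

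Prenatal LPS was tested as the mean of the 2 LPS groups minus that of the 2 saline groups. In DLS 0 of 8 members and 0% of 9275 genes were called, and 0 members had an unadjusted p under 0.05, against 1.61% of all genes. There 7 of 8 members had a value above 0, with a median of 0.13, against 50.2% of all genes above 0 and a median of 0.00. Some members varied together in DLS, as given below, so the 8 are not separate observations. Of 18 other glucocorticoid-responsive genes, 9 were above 0 and 9 below in the same comparison (median 0.004). In NAc 0 of 8 members and 0% of 10616 genes were called, and 1 member had an unadjusted p under 0.05, against 3.55% of all genes.

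That member was Fkbp5. In NAc it stood at 0.882, 0.891 and 0.996 in LPS stressed rats and at 0.959, 0.836 and 0.847 in LPS unstressed rats. It stood at 1.18, 1.08 and 0.980 in saline stressed rats and at 1.04, 0.920 and 1.05 in controls. The highest LPS library lay above the lowest saline libraries, so the sets overlapped. LPS minus saline came to a log2 difference of -0.21 ± 0.08 (SE, limma adjusted p = 0.823). Without both NAc libraries of high ribosomal protein index the difference was -0.23 ± 0.07 (SE). In DLS it was 0.01 ± 0.13 (SE), and the difference between the regions was -0.22 ± 0.14 (SE, adjusted p = 0.993).

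Sgk1 had the largest LPS difference of the members in DLS, with wide scatter. It stood at 1.49, 1.01 and 1.85 in LPS stressed rats and at 0.911, 1.56 and 1.08 in LPS unstressed rats. It stood at 1.33, 0.855 and 0.790 in saline stressed rats and at 0.976, 0.923 and 1.11 in controls. In each LPS group at least 1 library stayed within the range of the saline rats. LPS minus saline gave a log2 difference of 0.38, with a 95% interval of -0.03 to 0.78 (limma adjusted p = 1.00). In NAc it was 0.08 ± 0.16 (SE), and the difference between the regions was -0.29 ± 0.25 (SE, adjusted p = 0.993).

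Ddit4 in DLS stood at 1.23, 1.11 and 1.44 in LPS stressed rats and at 1.01, 1.60 and 1.03 in LPS unstressed rats. It stood at 1.09, 1.21 and 0.830 in saline stressed rats and at 1.10, 0.934 and 0.973 in controls. All 3 LPS stressed libraries were above all control libraries. The same held for Tsc22d3 in LPS stressed DLS and for Arrdc2 in LPS unstressed DLS. These gaps were found by looking through several genes and groups of 3 libraries, where such gaps can also arise by chance. The share of all genes with such a gap was not counted, so no effect is concluded from them. The LPS difference of Ddit4 was 0.26, with a 95% interval of -0.05 to 0.58 (limma adjusted p = 1.00). Arrdc2 (0.17 ± 0.11, SE) and Klf9 (0.19 ± 0.19, SE) were smaller.

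Each single exposure was also set against the same 3 control libraries, so those comparisons are not independent of each other. LPS alone in DLS called 0 of 8 members and 0% of genes, and 0 members had an unadjusted p under 0.05, against 3.25% of all genes. In NAc LPS alone called 0 of 8 members and 0% of genes, and 0 members were under an unadjusted 0.05, against 3.06% of all genes. LPS plus stress in DLS called 0 of 8 members and 0% of genes, with 0 members under an unadjusted 0.05, against 3.27% of all genes. In NAc LPS plus stress called 0 of 8 members and 0% of genes, with 0 members under an unadjusted 0.05, against 2.08% of all genes. In DLS the members' log2 differences ran from -0.25 (Nr3c2) to 0.49 (Sgk1) for LPS plus stress. In NAc they ran from -0.24 (Tsc22d3) to 0.08 (Nr3c1).

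Whether LPS and stress together departed from the sum of their single effects was tested as an interaction. In DLS 0 of 8 members and 0% of genes were called, and 0 members had an unadjusted p under 0.05, against 5.19% of all genes. In NAc 0 of 8 members and 0% of genes were called, and 0 members were under an unadjusted 0.05, against 1.78% of all genes. Intervals were widest here. For Sgk1 in DLS the interaction was 0.34, with a 95% interval of -0.47 to 1.15. For Tsc22d3 in DLS it was -0.40, with an interval of -1.03 to 0.23.

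The difference of the stress effect between NAc and DLS called 0 of 8 members and 0% of 7667 genes. For it 0 members had an unadjusted p under 0.05, against 3.17% of all genes. For the LPS effect the region difference also called 0 of 8 members and 0% of genes, with 0 members under an unadjusted 0.05, against 1.50% of all genes. Differences of the stress effect ran from -0.33 (Tsc22d3) to 0.23 (Nr3c2), and those of the LPS effect from -0.29 (Sgk1) to 0.16 (Nr3c1).

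**Figure D3:**
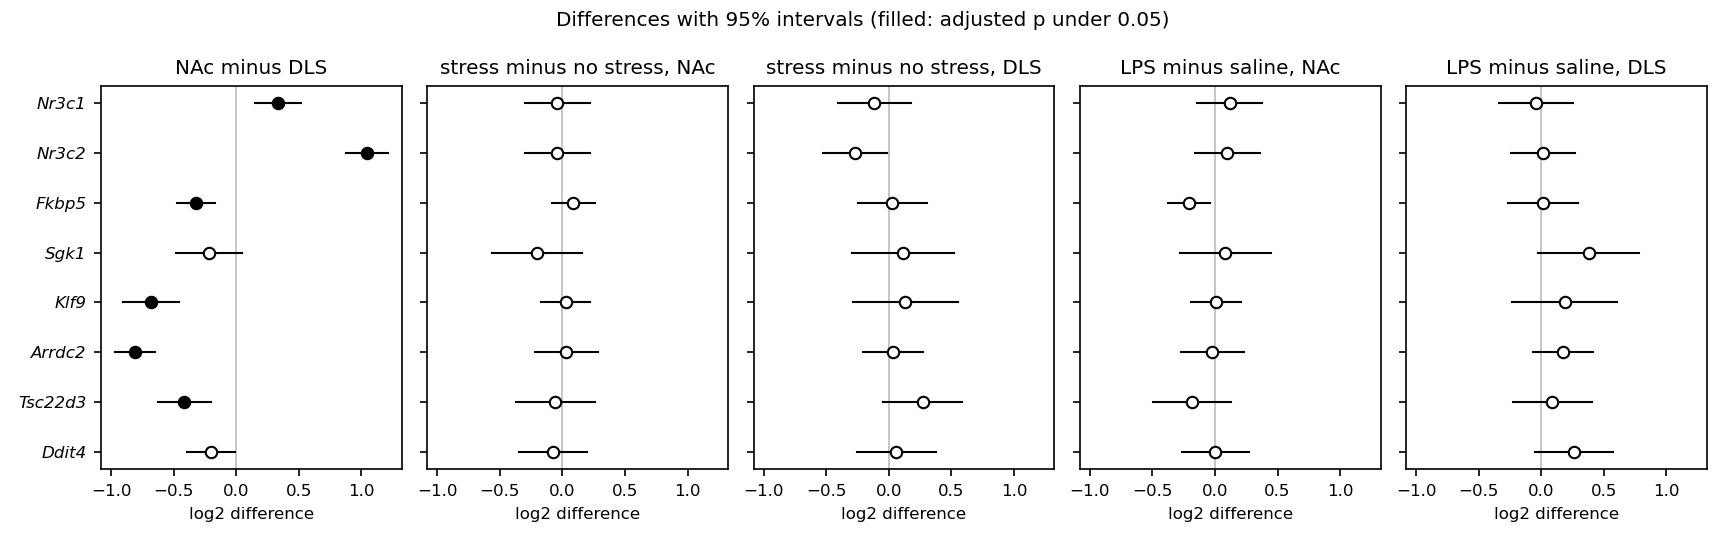
Log2 differences (x axis) of the 8 genes with 95% intervals, for NAc minus DLS and for the main effects of stress and LPS in each region. Filled points passed an adjusted p of 0.05, and there are 6 of them, all in the region comparison.

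Zbtb16, a zinc finger transcription factor that glucocorticoids induce in many cell types, could not be tested. Its digits spread over a 7.37-fold range in DLS and 3.74-fold in NAc, past the limit. With the limit widened to 0.7 decades its NAc ratios could be read. They were 0.936, 1.35 and 0.608 in LPS stressed rats and 0.587, 0.574 and 0.762 in LPS unstressed rats. They were 1.12, 1.16 and 1.95 in saline stressed rats and 0.520, 1.43 and 1.34 in controls. Control replicate 1 was the lowest of the 12 libraries. The LPS main effect was -0.61 ± 0.29 (SE, limma adjusted p = 0.830 over 11969 genes).

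The wider pathway showed the same count of calls. Under each main effect and each exposure against controls, 0 genes of the 4 pathway lists passed the adjusted threshold in either region. In DLS, saline stressed rats against controls had 14.6% of all genes under an unadjusted 0.05, and the responsive and chaperone lists that follow were at or below that share. They had 1 of 18 other glucocorticoid-responsive genes under an unadjusted 0.05 in the higher direction. That gene was Gjb6, an astrocyte connexin gene (0.74 ± 0.28, SE, adjusted p = 0.297). Fam107a, an actin-binding protein gene that stress and glucocorticoids induce, was at 0.31 ± 0.16 (SE). Of 14 chaperones 2 were under 0.05, both higher: Stub1, a ubiquitin ligase of chaperone clients (0.57 ± 0.19, SE) and Cdc37, a co-chaperone of kinases (0.37 ± 0.13, SE), each at an adjusted p of 0.294. Among coregulators 1 of 12 was under an unadjusted 0.05, in the lower direction. The list of hormone supply and the CRH system had 1 of 5, in the higher direction, a share above 14.6% but of few genes. In that list Pomc, the precursor of corticotropin, was at 1.05 ± 0.33 (SE, limma adjusted p = 0.294).

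In NAc 24 of the other responsive genes could be tested. For saline stressed rats against controls 3 of them had an unadjusted p under 0.05, all higher, against 1.29% of all genes. Fam107a (0.59 ± 0.19, SE) and Gjb6 (0.46 ± 0.18, SE) were among them. No gene was called in that comparison, where the smallest limma adjusted p of any gene was 0.99997. For LPS alone Fam107a was at 0.58 ± 0.19 (SE, adjusted p = 0.935), and for LPS plus stress at 0.40 ± 0.19 (SE, adjusted p = 0.962). These 3 comparisons share the control libraries. Mt1a, a metallothionein gene, was at -0.67 ± 0.19 (SE, adjusted p = 0.935) for LPS alone.

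The receptor genes varied together between libraries. In NAc Nr3c1 and Nr3c2 had a Pearson r of 0.95 over 12 libraries (permutation p = 2e-05, adjusted p = 0.00112 over 56 relations) and a Spearman rho of 0.93 (permutation p = 7e-05). Control replicate 1 and saline stressed replicate 3 were lowest in both genes (0.864 and 0.802 in Nr3c1, 0.878 and 0.753 in Nr3c2). These are the 2 libraries of high ribosomal protein index, and without them r was 0.89 over 10 libraries. In DLS r was 0.63 (permutation p = 0.03, adjusted p = 0.186) with a rho of 0.69 (permutation p = 0.0165), and 0.61 without the 2 libraries farthest in Nr3c1. The NAc relation was not particular to the pair. There the 3 genes nearest to Nr3c1 had an r of 0.98 with it, and the 3 nearest to Nr3c2 had 0.99. The mean of 13 receptor coregulators had an r of 0.91 with Nr3c1 and 0.95 with Nr3c2 in NAc.

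Over 12 libraries the receptor genes also moved against the ribosomal protein index. In DLS r was -0.88 for Nr3c1 (permutation p = 3e-04, adjusted p = 0.0048 over 32 relations; rho -0.84, permutation p = 0.00116, adjusted p = 0.0186) and -0.83 without the 2 libraries farthest in the index. For Nr3c2 it was -0.74 (permutation p = 0.0069, adjusted p = 0.0368; rho -0.75, permutation p = 0.00711, adjusted p = 0.0638), and -0.69 without those farthest. In NAc r was -0.80 for Nr3c1 (permutation p = 0.00628, adjusted p = 0.0368; rho -0.43, permutation p = 0.171) and -0.82 for Nr3c2 (permutation p = 0.00983, adjusted p = 0.0449; rho -0.46, permutation p = 0.135). Without control replicate 1 and saline stressed replicate 3, r was -0.08 for Nr3c1 and 0.08 for Nr3c2, so the NAc relations rested on these 2 libraries. The index ranged from -0.20 to 0.87 over the DLS libraries, and its part in the receptor values was not tested. The index was picked among more lists with its values in view, which the adjusted p-values do not cover.

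Tsc22d3 ran against both receptor genes in NAc. With Nr3c1 r was -0.86 (permutation p = 4.2e-04, adjusted p = 0.0118; rho -0.78, permutation p = 0.00421, adjusted p = 0.0786) and -0.78 without control replicate 1 and saline stressed replicate 3. With Nr3c2 r was -0.78 (permutation p = 0.00294, adjusted p = 0.0412; rho -0.78, permutation p = 0.00387, adjusted p = 0.0786) and -0.69 without those libraries. In DLS r was -0.01 with Nr3c1 (permutation p = 0.968) and -0.52 with Nr3c2 (permutation p = 0.0817). Tsc22d3 in NAc also followed the ribosomal protein index, which both receptor genes ran against over 12 libraries. For Tsc22d3 and the index r was 0.74 (permutation p = 0.0039, adjusted p = 0.0323), with a rho of 0.47 (permutation p = 0.128). Without control replicate 1 and saline stressed replicate 3 it was 0.25. The part of the index in these relations was not tested.

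Sgk1 and Ddit4 were high in the same DLS libraries. Their r was 0.78 over 12 DLS libraries (permutation p = 0.00254, adjusted p = 0.0412; rho 0.64, permutation p = 0.028, adjusted p = 0.174), so the relation passed by Pearson's r only. LPS unstressed replicate 2 and LPS stressed replicate 3 were the highest in both, and r was 0.53 without the 2 libraries farthest in Sgk1, so the relation rested partly on them. In NAc r was 0.69 (permutation p = 0.0124, adjusted p = 0.104; rho 0.69, permutation p = 0.0155), 0.48 without the libraries of high ribosomal protein index and 0.22 without the 2 farthest in Sgk1. Arrdc2 and Ddit4 had an r of 0.75 in DLS (permutation p = 0.00513, adjusted p = 0.0575; rho 0.59, permutation p = 0.0458), 0.50 without the 2 farthest. In NAc it was 0.15 (permutation p = 0.643).

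**Figure D4:**
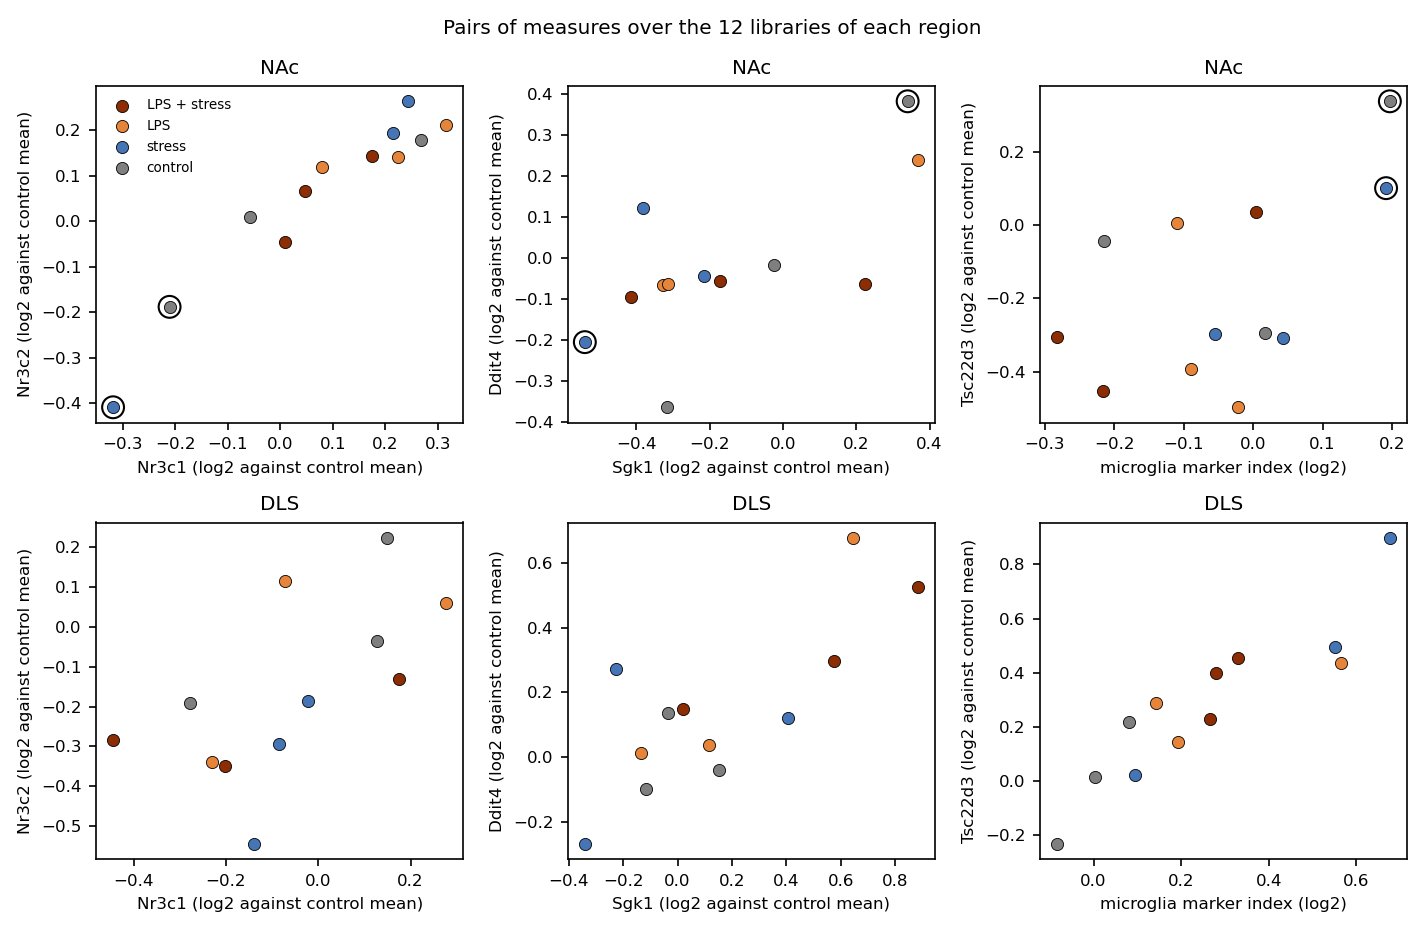
Pairs of measures over the 12 NAc libraries (top) and the 12 DLS libraries (bottom), each axis as log2 relative to the control mean of the region and each point a library coloured by group. Circles mark NAc control replicate 1 and saline stressed replicate 3, which are lowest in both receptor genes. Tsc22d3 follows the microglia index in DLS (r = 0.91).

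For each gene the 3 genes of highest Pearson r over the 12 libraries of a region were looked up, as a description of these libraries. They were compared with 9274 other genes in DLS and 10615 in NAc. Nr3c2 was most like Wac in NAc (0.99), a gene of histone ubiquitination, and Nr3c1 most like Atrn in DLS (0.97), which codes for attractin. Sgk1 was most like Klf15 in NAc (0.94), itself a transcription factor gene induced by glucocorticoids, and most like Myd88 in DLS (0.79), an adaptor of Toll-like receptors, with Ddit4 in the second place. Tsc22d3 was most like Mfsd2a in DLS (0.94), a lipid transporter gene of the blood-brain barrier. Arrdc2 had Mettl7a among its nearest 3 in both regions (0.84 in DLS, 0.80 in NAc). Ptpn6, a phosphatase of immune cells, was among the nearest 3 of both Arrdc2 (0.91) and Ddit4 (0.83) in DLS. Fkbp5 was most like Thrb, a thyroid hormone receptor gene, in DLS (0.92) and Erf in NAc (0.90). Klf9 was most like Serpinb1a in DLS (0.92) and Stxbp2 in NAc (0.90).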

How the data were processed

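RNA-seq of bulk NAc and DLS was deposited as 1 table of 17303 genes and 24 libraries. STAR 2.6.25.17 and Cuffdiff 2.2.1 are named, without roles, per the submitters' processing notes. Build and annotation: not given in the sources used here. The columns are headed as FPKM, per the file headers, but the decimal points of the deposited numbers are lost, so each was handled as a score that is known up to a power of 10. This differs from the FPKM first planned for, so no pseudocount or filter on mean FPKM was applied.

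For each gene the log10 digits were placed on a circle where a full turn is a factor of 10. Genes were used if their libraries lay within an arc of 0.5 decades (3.16-fold), read as log2 differences. A gene with a 1 or a blank in a fitted library was left out; 97026 values are listed as 1, which need not mean absence, since the astrocyte gene Slc1a3 is also listed as 1 in places. This left 9275 genes in DLS (of 12091 above 1 throughout), 10616 in NAc (of 12496) and 7667 over both (of 12001). Tested on simulated data, true 3-fold changes mostly fell outside the arc, and larger ones could be read with the wrong sign.

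limma 3.58.1 (R 4.3.3) was used for linear models, per region (4 group means, 8 residual degrees of freedom) and over all 24 libraries (8 group means, 16 degrees of freedom), with Benjamini-Hochberg adjustment over all genes tested and a threshold of 0.05. Comparisons against controls share the 3 control libraries. Permutation p-values of correlations are two-sided, from 100000 permutations. The libraries of a region were shuffled without regard to group, so these p-values do not separate differences between groups from variation within them. Intervals are 95% intervals from limma.

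The 9 members and all gene lists were chosen with earlier results of these data known. All members were named. From other lists up to 4 called genes per comparison were named, or the 2 with the smallest p. The relations with the microglia and ribosomal indices, the GC box motif, and which relations to print, were picked with their values in view. The adjusted p-values of the index relations do not cover that choice. Other arcs, median centring, robust empirical Bayes, genes with missing libraries, a joint fit and leaving out libraries were tried.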

Additional observations from a re-analysis of the deposited data

Results flagged for a closer look

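Ddit4 in LPS stressed rats lay on opposite sides of the control mean in the 2 regions, though neither difference passed the test. In NAc all 3 libraries were below it (0.961, 0.957 and 0.936), and in DLS all 3 were above it (1.23, 1.11 and 1.44). The mean log2 difference was -0.07 in NAc and 0.32 in DLS, so NAc minus DLS came to -0.40. The 95% intervals were -0.45 to 0.31 in NAc and -0.12 to 0.77 in DLS, and both hold 0. This difference was not tested. The case was picked among the recoverable members and the exposed groups with their values in view. With several genes and groups looked through, such a case can also arise by chance. The share of all genes with such a pattern was not counted, so no difference between the regions is concluded from it. The NAc control libraries of Ddit4 ran from 0.776 to 1.30, a range that holds all 3 NAc LPS stressed libraries.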

How the results depend on the processing

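No paired analysis was possible because the labels give no replicate numbers: the titles are running numbers, the numbers 1 to 3 used here only name the libraries of a group, and no label ties libraries to rats or litters. Over both regions 6 members were called, and with an arc of 0.3 decades the count was 2, since only 2 members, Nr3c1 and Fkbp5, could then be tested. Leaving out 1 library at a time gave 6 to 7 called, the added one being Ddit4 (adjusted p from 0.0191 to 0.138), and leaving out both NAc libraries with a high ribosomal index, an alternative chosen after seeing the data, gave 7. The counts of 0 members called, in the other 14 comparisons, were 0 under every alternative that was run. The 11 member differences that were followed through the alternatives kept their sign. Without 1 library the stress difference of Nr3c2 in DLS ran from -0.34 to -0.21, the difference of Tsc22d3 between saline stressed and control DLS from 0.26 (without saline stressed replicate 1) to 0.70 (without replicate 3), and the LPS difference of Fkbp5 in NAc from -0.24 to -0.17. Over all genes, calls within a region stayed at 0 except for 1 gene in NAc, for LPS alone at an arc of 0.7 decades or without control replicate 2, and for stress alone without control replicate 3. Nr3c2, Klf9 and Arrdc2 could not be recovered over both regions at the narrow arc. Unknown depth and 3 libraries a group limit every comparison.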
